A study of Mus musculus with 4 samples.

Results

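The genes described here are 9 transcription factors that maintain hepatocyte identity or sense bile acids and xenobiotics, namely Hnf4a, Cebpa, Foxa2, Foxa3, Onecut1, Prox1, Nr1i2, Nr1i3 and Nr1h4. They were listed by name for their known roles in the liver, with no threshold on a measured value, and all 9 have a row among the 54464 genes of the deposited count matrix. Hepatocytes keep their specialised state through a network of liver-enriched factors that bind the control regions of one another and of the genes for plasma proteins, gluconeogenesis and bile acid synthesis. HNF4A, a nuclear receptor, and the C/EBP, FOXA and ONECUT factors form the core of this network, and PROX1 is a homeobox protein that works with HNF4A in the liver bud and in the adult. The nuclear receptors PXR (Nr1i2), CAR (Nr1i3) and FXR (Nr1h4) act on top of it. PXR and CAR switch on drug-metabolising enzymes when foreign compounds arrive, and FXR is the receptor for bile acids.

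Single-nucleus RNA-Seq was performed on livers of 3 WT and 3 HNKO mice to learn which liver cells carry the transcriptional changes that follow loss of Nampt, the enzyme that makes NAD from nicotinamide. HNKO mice carry floxed Nampt alleles and Cre driven by the albumin promoter (C57BL6/BomTac Alb-Cre Nampt cKO), so recombination is directed to hepatocytes, whereas the WT littermates carry the floxed alleles without Cre (C57BL6/BomTac Nampt cKO). All 6 mice were females of 8 to 12 weeks at the start of a 6-week period on a purified control diet, which both genotypes received. Nuclei of each mouse were stained with a hashtag antibody of its own and pooled before sequencing.

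The data held 5193 nuclei with distinct barcodes, 629 to 1063 per mouse, of which 4410 were named hepatocytes by the authors. Hepatocyte sums held 3524497 to 6635290 unique molecular identifiers (UMIs) per mouse, and the median hepatocyte nucleus was deeper in HNKO mice (4800 to 5786 UMIs) than in WT mice (3572 to 4162). Nampt counts did not separate the genotypes. They came to 91.7, 108 and 103 CPM (counts scaled to a common library total and by TMM, which allows for a few abundant genes taking a larger part of the UMIs) in hepatocytes of the WT mice and 91.7, 147 and 70.9 in HNKO mice 1, 2 and 3 (log2 fold change 0.03, SE 0.27, edgeR adjusted p = 0.985). Counts per gene do not show which exons a transcript held, so HNKO below means the mice labelled so. HNKO mouse 3 stood apart from the rest. Its median nucleus drew 45.5% of its hashtag counts from its own hashtag against 65.2% to 78.0% in the other mice, and the 7 hepatocyte markers summed to 8440 CPM, scaled by TMM, in its hepatocytes against 24673 to 30033. Of the 13 hepatocyte clusters, 9 drew 94.8% to 100% of their nuclei from a single mouse, so cluster and mouse cannot be told apart there. All 7 hepatocyte markers were highest in hepatocytes, and all 9 cholangiocyte, 5 endothelial, 5 stellate and 5 Kupffer cell markers were highest in the type they mark, as were 5 of 6 CD45+ cell markers (not Bank1).

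Each factor lies on its own stretch of GRCm38. Hnf4a (ENSMUSG00000017950) spans chr2:163506808-163572910 on the plus strand, and Prox1 (ENSMUSG00000010175) spans chr1:190118035-190170714 on the minus strand. Onecut1 (ENSMUSG00000043013) spans chr9:74861921-74891781 on the plus strand. The forkhead gene Foxa2 (ENSMUSG00000037025) spans chr2:148042877-148046969 and its relative Foxa3 (ENSMUSG00000040891) spans chr7:19013284-19023538, both on the minus strand, and Cebpa (ENSMUSG00000034957) spans chr7:35119293-35121928 on the plus strand. Of the receptors, Nr1i2 (ENSMUSG00000022809) spans chr16:38248323-38294824 and Nr1h4 (ENSMUSG00000047638) spans chr10:89454234-89533585 on the minus strand, and Nr1i3 (ENSMUSG00000005677) spans chr1:171213970-171220701 on the plus strand. Reads of some members can be shared with neighbours. Onecut1 lies largely inside Gm20649 (ENSMUSG00000093662), a lincRNA gene on the same strand, and 65.2% of the nonzero Onecut1 values were not whole numbers (tolerance 0.001). In 1185 of the 1188 nuclei concerned the value of Gm20649 was fractional too, so Onecut1 is reported as uncertain. Of the nonzero Hnf4a values, 19.99% were not whole numbers either, against at most 0.463% (Foxa3) for the remaining members. Which gene shares these Hnf4a reads was not tested. The Hnf4a levels below, and their comparison with Hnf4aos, carry this uncertainty. Hnf4aos and Prox1os are transcribed from the opposite strand of Hnf4a and Prox1, and Tomm40l overlaps Nr1i3 on the opposite strand. Whether the counting used strand is not given in the sources used here.

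Promoter sequences from RefSeq (GRCm38.p6) are shown for the members the results turn on. These are Hnf4a, whose upstream start lies within the span of Hnf4aos and whose downstream start lies outside it, Nr1i3 and Nr1h4, whose genotypes did not overlap in hepatocytes on the scaled values below, and Cebpa, Foxa2 and Foxa3, which were highest together in HNKO mouse 3. All 9 members matched the RefSeq table, with 13 starts in all. Each line gives the 250 bases before a start, 5′ to 3′.
Hnf4a, upstream start (chr2:163506607-163506856, plus strand): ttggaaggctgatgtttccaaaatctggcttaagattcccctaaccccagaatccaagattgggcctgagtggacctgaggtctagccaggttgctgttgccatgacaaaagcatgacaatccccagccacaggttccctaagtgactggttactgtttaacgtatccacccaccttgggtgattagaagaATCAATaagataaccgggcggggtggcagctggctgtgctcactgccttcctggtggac
Hnf4a, downstream start (chr2:163546905-163547154, plus strand): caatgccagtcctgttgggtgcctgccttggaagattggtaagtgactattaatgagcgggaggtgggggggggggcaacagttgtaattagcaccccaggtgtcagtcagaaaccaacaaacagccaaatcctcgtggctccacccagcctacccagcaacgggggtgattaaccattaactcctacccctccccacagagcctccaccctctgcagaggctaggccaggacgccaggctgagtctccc
Nr1i3 (chr1:171213720-171213969, plus strand): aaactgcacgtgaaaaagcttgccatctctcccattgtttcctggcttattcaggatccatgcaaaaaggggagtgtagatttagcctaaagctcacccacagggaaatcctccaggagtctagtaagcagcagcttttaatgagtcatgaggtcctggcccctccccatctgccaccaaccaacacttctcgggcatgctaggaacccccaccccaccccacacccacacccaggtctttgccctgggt
Nr1h4 (chr10:89506659-89506908, minus strand): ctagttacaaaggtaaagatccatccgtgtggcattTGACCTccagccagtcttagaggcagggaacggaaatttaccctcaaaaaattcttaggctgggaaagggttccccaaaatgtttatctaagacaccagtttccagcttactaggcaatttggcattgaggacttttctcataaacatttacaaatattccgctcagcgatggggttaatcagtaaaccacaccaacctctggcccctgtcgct
Cebpa (chr7:35119043-35119292, plus strand): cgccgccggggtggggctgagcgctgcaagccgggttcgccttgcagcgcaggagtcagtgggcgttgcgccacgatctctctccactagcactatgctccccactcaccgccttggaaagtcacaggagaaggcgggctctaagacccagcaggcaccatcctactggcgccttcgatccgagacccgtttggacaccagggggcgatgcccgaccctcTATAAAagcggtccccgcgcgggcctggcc
Foxa2, first start (chr2:148046970-148047219, minus strand): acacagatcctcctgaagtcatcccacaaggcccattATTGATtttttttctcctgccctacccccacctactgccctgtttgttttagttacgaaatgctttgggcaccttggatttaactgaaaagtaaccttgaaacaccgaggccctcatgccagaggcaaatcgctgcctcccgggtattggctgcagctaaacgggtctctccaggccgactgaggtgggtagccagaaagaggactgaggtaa
Foxa3 (chr7:19023540-19023789, minus strand): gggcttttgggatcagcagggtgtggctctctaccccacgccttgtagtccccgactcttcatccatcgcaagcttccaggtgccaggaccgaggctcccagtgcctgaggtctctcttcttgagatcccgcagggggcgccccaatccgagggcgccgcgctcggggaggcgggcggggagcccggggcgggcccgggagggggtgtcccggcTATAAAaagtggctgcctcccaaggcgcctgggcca
Capitals mark matches on either strand to the letters searched, which were CAAAGTCCA for HNF4, TGTTTAC for FOXA, TTGCNNAA for C/EBP, ATTGAT for ONECUT, AGGTCA for a nuclear receptor half-site and TATAAA for a TATA box. No printed matches overlapped. An ONECUT match stood 59 to 54 bases before the upstream Hnf4a start and another 213 to 208 bases before the first Foxa2 start, and 6.72% of the 32851 windows of this length held such a match. A TATA box on the given strand stood 30 to 25 bases before the Cebpa start and 36 to 31 bases before the Foxa3 start (12.4% of windows on either strand). The Nr1h4 window held a half-site 214 to 209 bases before the start (14% of windows), and the window of Nr1i3 and that of the downstream Hnf4a start held none of these letters. The HNF4, FOXA and C/EBP letters, present in 0.384%, 3.17% and 9.56% of windows, were in none of the 13 windows of the members. A match is a description of letters and not a binding site.

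Hnf4a was found in hepatocytes and, at a like level, in one of the 2 cholangiocyte clusters. In hepatocytes the UMIs summed over mice gave 312 CPM of the UMI total, and the mice ranged from 267 to 361. Cholangiocyte 1, a cluster of 76 nuclei, gave 337 CPM (174 UMIs, exact Poisson 95% interval 289 to 391). Cholangiocyte 2, with 34 nuclei, gave 27.2 CPM (4 UMIs, interval 7.46 to 69.6). The contrast was present in each HNKO mouse with at least 10 nuclei in both clusters. In HNKO mouse 1 Hnf4a was at 330 CPM in Cholangiocyte 1 and 51.1 in Cholangiocyte 2. In HNKO mouse 3 it was at 348 and 30.8 CPM. No nucleus of a WT mouse fell in Cholangiocyte 1 and HNKO mouse 2 gave 1, so this cluster holds nuclei of HNKO mice 1 and 3 almost alone. Clusters were made by the authors from these same nuclei, so the difference is a description and was not tested.

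Free hepatocyte RNA can enter any droplet and give UMIs in nuclei that do not use a gene, so each level was set beside 10 hepatocyte reference genes (Alb, Apob, Apoa1, Ttr, Trf, Fgb, Cps1, Serpina1e, Apoc3 and Cyp2e1), of which Serpina1e was scarce even in hepatocytes (2.89 CPM). In Cholangiocyte 1 these stood at 0% to 40.9% of the hepatocyte level, with Trf highest and a median of 19.3%, whereas Hnf4a stood at 108%. Alb stood at 12.9% there. On the authors' SCTransform values, which are corrected for depth, Hnf4a stood at 86.7% of hepatocytes. In Cholangiocyte 2 Hnf4a stood at 8.74%, inside the range of the 10 genes (0% to 29.4%). The antisense gene Hnf4aos did not follow Hnf4a. Its level in Cholangiocyte 1 was 21.9 CPM against 381 in hepatocytes of all mice, or 5.76%. In HNKO mice 1 and 3 it was at 18.6 and 24.8 CPM there, against 274 and 182 CPM in hepatocytes of the same mice. The cluster also carried biliary markers, with Spp1 at 1172 CPM against 17.3 in hepatocytes and Bicc1 at 2805 against 11.3. The defining markers Krt19, Krt7 and Epcam had 0, 1 and 4 UMIs in it, whereas Cholangiocyte 2 had 3, 6 and 6.

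Counted by nuclei, a UMI of Hnf4a (a value of at least 0.5) was present in 41 of 76 nuclei of Cholangiocyte 1, or 53.9% (exact binomial interval 42.1 to 65.4), at a median of 4780 UMIs per nucleus. The share was 68.8% of 4410 hepatocyte nuclei at a median of 4484 UMIs. Cholangiocyte 2 had 11.8% (interval 3.30 to 27.4, median 4164 UMIs), endothelial cells 14.7% (median 3017) and Kupffer cells 5.00% (median 3088). Thinned to 1300 UMIs per nucleus, the shares were 31.1% in hepatocytes, 24.7% in Cholangiocyte 1, 4.78% in Cholangiocyte 2, 6.53% in endothelial cells and 1.32% in Kupffer cells. The Cholangiocyte 1 nuclei with Hnf4a drew 0.249% of their UMIs from the 10 reference genes, close to the 0.287% in those without it. Hepatocytes drew 2.40% over all mice, 2.63% in HNKO mouse 1 and 1.185% in HNKO mouse 3. The Cholangiocyte 1 nuclei with Hnf4a were also the deeper ones, with a median of 7815 UMIs against 3423. Intervals of counts and shares cover counting error only.

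Prox1 and Onecut1 were shared by hepatocytes and both cholangiocyte clusters. Prox1 was at 440 CPM in hepatocytes, with mice from 277 to 651, and at 392 CPM in Cholangiocyte 1 and 291 CPM in Cholangiocyte 2 (intervals 340 to 450 and 211 to 392). Over both cholangiocyte clusters HNKO mice 1, 2 and 3 gave 384, 468 and 349 CPM, inside the range of the 6 hepatocyte levels. ONECUT1, also called HNF6, is used by hepatocytes and by developing bile ducts. It was at 83.1 CPM in hepatocytes and 138 CPM in cholangiocytes, where HNKO mice 1, 2 and 3 gave 135, 86.2 and 145. These overlap the hepatocyte levels of the mice, which ran from 23.7 to 217. Relative to hepatocytes of all mice Onecut1 stood at 147% in Cholangiocyte 1 and 232% in Cholangiocyte 2, above each of the 10 reference genes. That hepatocyte level was set largely by HNKO mouse 2 (217 CPM), and ratios within a mouse differed widely. Relative to hepatocytes of the same mouse, Onecut1 stood at 574% and 254% in Cholangiocyte 1 and at 538% and 652% in Cholangiocyte 2 of HNKO mice 1 and 3. In cholangiocytes of HNKO mouse 2 it stood at 39.8%, below the reference gene Ttr at 72.8%. Over all mice Gm20649, which shares its reads, stood at 124% and 187%.

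Foxa2 and Foxa3, forkhead factors that open liver chromatin, and Cebpa, which drives genes of glucose and nitrogen metabolism, were low in these nuclei. Over all mice hepatocytes held 440 UMIs of Foxa2, 854 of Foxa3 and 530 of Cebpa, for 14.7, 28.4 and 17.6 CPM. The shares of hepatocyte nuclei with a UMI were 8.5%, 13.9% and 10.02%. Cholangiocyte 1 held 7, 22 and 4 UMIs. All 22 Foxa3 UMIs came from HNKO mouse 3, where hepatocytes were highest too, and none of the 221247 UMIs of HNKO mouse 1 in this cluster was of Foxa3.

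Summed over mice, Cebpa was higher in Kupffer cells and CD45+ cells than in hepatocytes, but within the range of counting error. C/EBP-alpha is also a factor of the myeloid lineage. Its mRNA was at 30.1 CPM in Kupffer cells (9 UMIs, interval 13.7 to 57.1) and at 25.7 CPM in CD45+ cells (17 UMIs, interval 15.0 to 41.1), or 170% and 146% of hepatocytes. Both intervals include the 17.6 CPM of hepatocytes. The 10 reference genes reached at most 44.4% in Kupffer cells and 68.3% in CD45+ cells. HNKO mice 1, 2 and 3, which had at least 10 Kupffer nuclei each, gave 19.4, 26.9 and 42.6 CPM from 2, 1 and 4 UMIs. In hepatocytes of the same mice Cebpa was at 9.34, 15.4 and 44.2 CPM, so the mice overlap and the intervals of the single mice are wide. HNKO mouse 3 was thus lower in Kupffer cells than in hepatocytes. CD45+ cells stood at 211% and 192% of hepatocytes in WT mice 1 and 2, and at 156%, 63.8% and 124.5% in HNKO mice 1, 2 and 3. Foxa2 and Foxa3 stood at 82.6% and 74.5% in CD45+ cells from 8 and 14 UMIs, 10 of the latter from HNKO mouse 3. Foxa2 was above every reference gene in WT mouse 1 and HNKO mouse 2, and Foxa3 in WT mice 1 and 2. These cases rest on 1 to 3 UMIs each. Neither was above every reference gene in HNKO mice 1 and 3. In HNKO mouse 3 the highest was the scarce Serpina1e (611%), and Foxa3 (106%) exceeded the next, Apoa1 (83.5%).

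**Figure D1:**
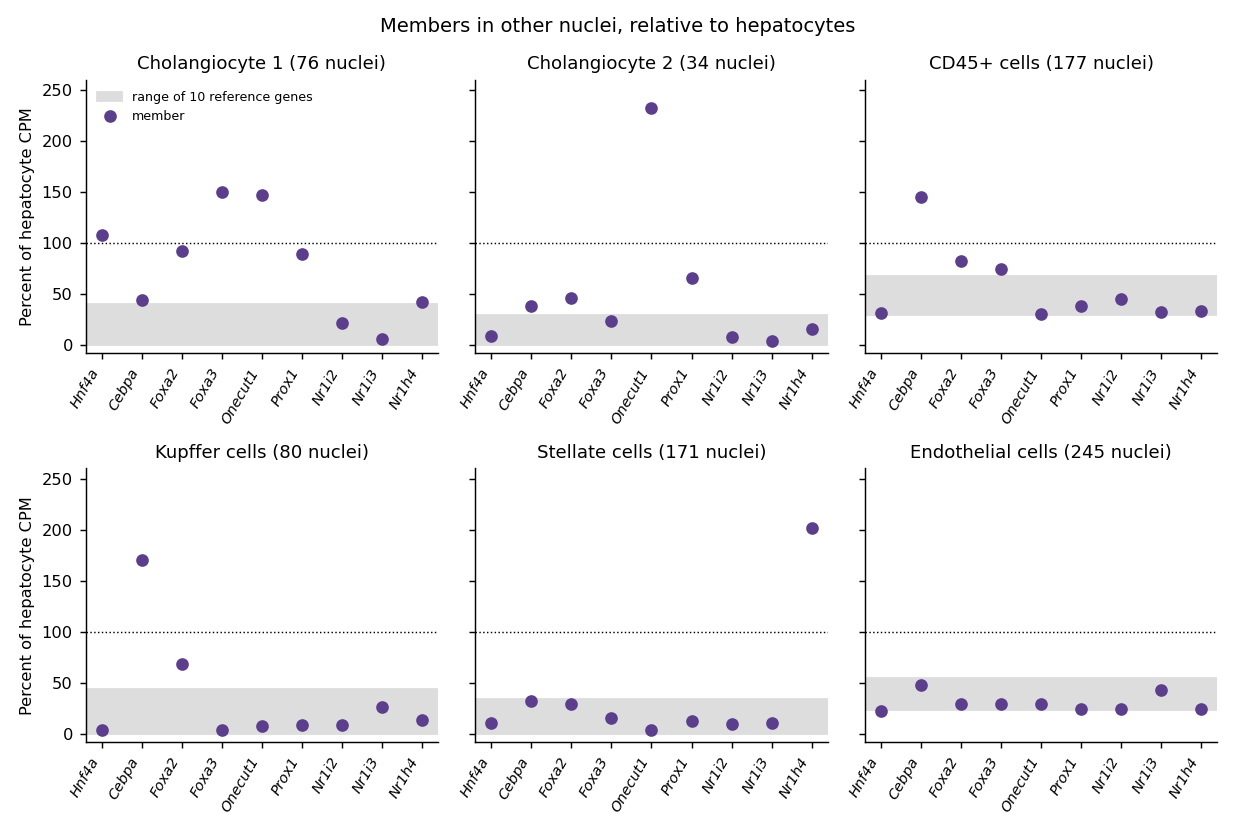
Level of each member in other nuclei as a percent of its level in hepatocytes, from UMIs summed over mice (CPM of the UMI total). Points are members, the grey band is the range of 10 hepatocyte reference genes in the same nuclei, and the dotted line marks the hepatocyte level. Hnf4a stood at 108% in Cholangiocyte 1 and 8.74% in Cholangiocyte 2, Cebpa at 170% in Kupffer cells and Nr1h4 at 202% in stellate cells. In endothelial cells the upper edge of the band (54.9%) was set by the scarce Serpina1e.

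Among the nuclear receptors, Nr1h4 was highest in stellate cells and Nr1i2 and Nr1i3 in hepatocytes. Hepatic stellate cells store vitamin A and make matrix after injury. Their nuclei held Nr1h4 at 1830 CPM (1267 UMIs, interval 1731 to 1934) against 907 CPM in hepatocytes. WT mice 1, 2 and 3 gave 2163, 2259 and 2167 CPM in stellate cells, from 19, 16 and 27 nuclei. HNKO mice 1, 2 and 3 gave 1330, 2383 and 1247 CPM, from 43, 34 and 32 nuclei. Every mouse was higher in stellate cells than in hepatocytes, where the levels ran from 738 to 1116 CPM. HNKO mice 1 and 3 lay below all 3 WT mice in stellate cells and HNKO mouse 2 lay above them, so the genotypes overlapped (exact permutation p = 0.4, two-sided, smallest possible 0.1). The 10 reference genes stood at 0% to 34.3% in stellate cells, and Alb at 18.2%, so Nr1h4 at 202% was outside their range. Thinned to 1300 UMIs, 79.1% of 171 stellate nuclei and 61.9% of hepatocyte nuclei had a UMI of Nr1h4, against 16.3% of endothelial nuclei. Median depths were 3378, 4484 and 3017 UMIs and unthinned shares were 93.6%, 89.2% and 31.8%.

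Nr1i3 was at 150 CPM in hepatocytes and 9.05 CPM in cholangiocytes (6 UMIs, interval 3.32 to 19.7). At 6.04% of hepatocytes it was below the median of the 10 reference genes (17.8%) in cholangiocytes. Nr1i2 was at 334 CPM in hepatocytes and 61.9 CPM in cholangiocytes, or 18.5%, close to that median. Relative to hepatocytes of the same mouse, Nr1i2 stood at 17.0%, 6.99% and 36.0% in HNKO mice 1, 2 and 3. The reference medians of these mice were 18.8%, 6.28% and 22.45%, so HNKO mouse 3 was above its median. Nr1h4 was at 332 CPM in cholangiocytes, or 36.6%, against 34.0% for the highest reference gene. Within HNKO mice 1, 2 and 3 it stood at 44.3%, 16.7% and 37.66%, each below the highest reference gene of that mouse (48.2%, 72.8% and 37.75%). In Cholangiocyte 1 the 9 members ranged from 6.47% of hepatocytes for Nr1i3 and 21.5% for Nr1i2, over 42.6% for Nr1h4 and 44.0% for Cebpa (4 UMIs), to 150% for Foxa3. In endothelial cells all 9 members stood at 22.4% to 47.9% of hepatocytes, and the 10 reference genes at 23.0% to 54.9%. The upper value was that of the scarce Serpina1e, and Cebpa (47.9%) and Nr1i3 (43.0%) exceeded the next reference gene, Apoc3 (39.2%).

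Within hepatocytes, Nr1i3 was higher in nuclei of pericentral clusters. The liver lobule is zoned into a periportal side and a pericentral side near the central vein, which express different enzymes. Clusters that the authors named Central were compared with all other hepatocyte nuclei of the same mouse, on CPM of the UMI total. In WT mice 1, 2 and 3 Nr1i3 was at 188, 332 and 344 CPM in Central clusters and 144, 244 and 192 CPM elsewhere. In HNKO mice 1, 2 and 3 it was at 134, 348 and 243 CPM in Central clusters and 76.1, 145 and 98.9 CPM elsewhere. It was thus higher in Central clusters of all 6 mice, by 1.31 to 2.45 times. For scale, the pericentral gene Cyp2e1 was higher by 2.54 to 4.17 times, and the periportal gene Sds was at 0.0225 to 0.263 times. These counts rest on 49 to 142 Nr1i3 UMIs in Central clusters, and since the clusters were made from all genes the ratios are not tested. Single clusters outside Central reached similar levels. Summed over mice, Nr1i3 was at 252 CPM in Hepatocytes 1 and 249 in Hepatocytes 3. Central 1, Central HNKO 1 and Central HNKO 2 were at 305, 134 and 243 CPM. In WT mouse 1, Hepatocytes 4 (209 CPM) was above Central 1 (188 CPM).

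Nr1i2 was also higher in Central clusters of all 6 mice, by a smaller margin of 1.07 to 1.32 times. Onecut1 and Prox1 were lower in Central clusters of all 6 mice, at 0.424 to 0.915 and 0.768 to 0.982 times the level elsewhere. Against the main Periportal cluster of the same mouse, Prox1 in Central 1 was at 0.864, 1.165 and 1.018 times in WT mice 1, 2 and 3. In HNKO mouse 2 it was at 0.854 times, so Prox1 was not lower than in Periportal nuclei of every mouse. Onecut1 was at 0.361, 0.981 and 0.6375 times in those WT mice and 0.704 times in HNKO mouse 2. Hnf4a was lower in 5 mice and higher in HNKO mouse 3, with ratios of 0.781 to 1.07. Nr1h4 was higher in 4 mice and lower in WT mouse 2 and HNKO mouse 1. Against the main Periportal cluster, Nr1h4 in Central 1 was at 1.61, 1.21 and 1.51 times in WT mice 1, 2 and 3. In HNKO mouse 2 it was at 1.34 times, and HNKO mice 1 and 3 had too few nuclei in these clusters. Cebpa, Foxa2 and Foxa3 had between 0 and 28 UMIs in the Central nuclei of a mouse, and each was higher in Central clusters in 2 of 6 mice.

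**Figure D2:**
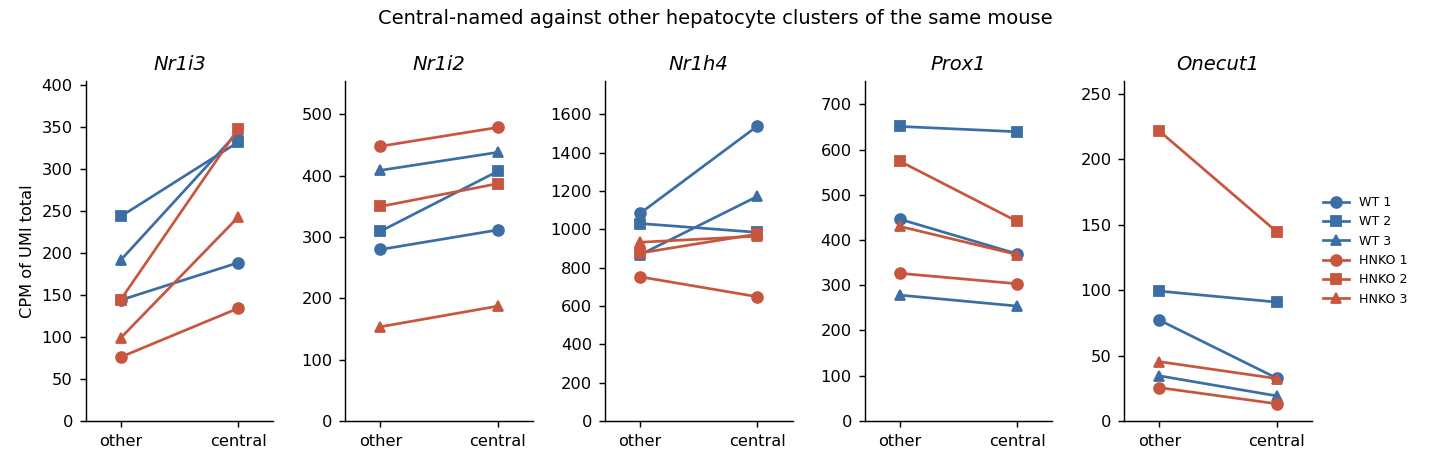
Level of 5 members (CPM of the UMI total, linear axes from 0) in Central-named hepatocyte clusters and in all other hepatocyte clusters of the same mouse. Each line joins the values of a mouse, in blue for WT and red for HNKO. Nr1i3 and Nr1i2 were higher in Central clusters in all 6 mice, and Prox1 and Onecut1 lower in all 6.

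Over the 13 hepatocyte clusters Hnf4a and Nr1h4 were the most even members. Hnf4a ranged from 241 CPM in Hepatocytes 2 to 405 CPM in Periportal 2, a ratio of 1.68, and Nr1h4 from 650 CPM in Central HNKO 1 to 1262 CPM in Hepatocytes 4, a ratio of 1.94. Nr1i3 ranged from 64.1 CPM in the cluster HNKO 2 to 305 CPM in Central 1, a ratio of 4.76. Between the clusters of HNKO mouse 3, it was at 65.0 CPM in HNKO 2, 165 in HNKO 3 and 243 in Central HNKO 2, so the low value was not shared by all nuclei of this mouse. Nr1i2, in contrast, was low in all 3 of these clusters, at 155, 153 and 187 CPM, and ranged up to 476 CPM in Central HNKO 1. Onecut1 ranged from 11.7 CPM in Central HNKO 1 to 181 CPM in Hepatocytes 1, the cluster shared by WT mouse 2 and HNKO mouse 2. Cebpa was highest in the 3 clusters of HNKO mouse 3, at 64.7, 43.9 and 38.6 CPM, and at 3.34 to 18.9 CPM in the other 10.

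**Figure D3:**
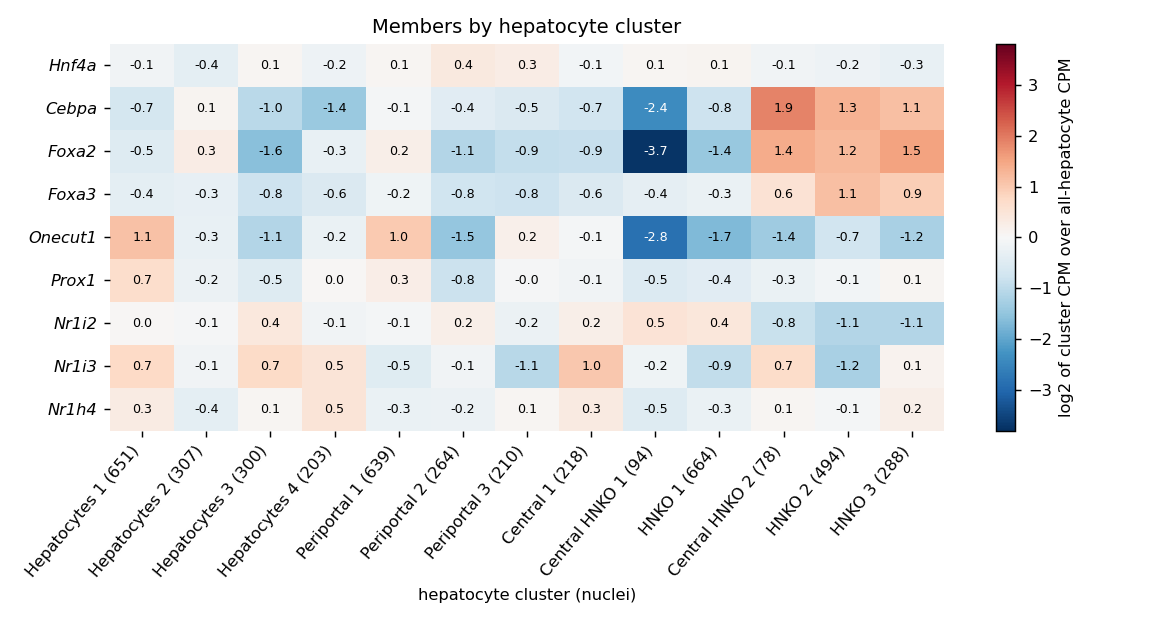
Log2 ratio of the level of each member in a hepatocyte cluster to its level over all hepatocytes, both as CPM of UMIs summed over mice. Red is higher and blue lower, with the number of nuclei beside each cluster name. Cebpa, Foxa2 and Foxa3 were high and Nr1i2 low in the 3 clusters on the right, which come from HNKO mouse 3, whereas Nr1i3 varied between these clusters.

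To determine whether the members differed between genotypes, hepatocyte UMIs were summed per mouse and tested across all genes with edgeR. Values in the account of this comparison are CPM scaled by TMM. None of the 9 members passed an adjusted p of 0.05, and 0 of the 11810 genes tested did (0%). At an unadjusted p under 0.05 edgeR found 698 genes (5.91%) and 1 member, Nr1i3. With DESeq2, 21 genes passed an adjusted p of 0.05, none of them a member. The 3 HNKO mice lay on one side of the 3 WT mice for 1371 genes (11.6%) and for 2 members, Nr1i3 and Nr1h4. Both lay lower in HNKO mice, as did 615 of all genes (5.21%).

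Nr1i3 was the member furthest from no change relative to its error. It was at 159, 256 and 214 CPM in WT mice 1, 2 and 3 and at 91.7, 157 and 86.2 CPM in HNKO mice 1, 2 and 3. All HNKO mice lay below all WT mice, although HNKO mouse 2 and WT mouse 1 were only a little apart. The means were 210 ± 48.3 and 112 ± 39.3 CPM (SD, n = 3 each), a log2 fold change of -0.91 (SE 0.29), with an unadjusted edgeR p of 0.0133 and an adjusted p of 0.82. Leaving out each mouse in turn gave log2 fold changes from -1.24 to -0.75, and the adjusted p ranged from 0.169 to 0.977 over all settings. On CPM of the UMI total HNKO mouse 2 (158) was above WT mouse 1 (147), and the genotypes overlapped.

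Nr1h4 was at 1207, 1062 and 942 CPM in WT mice and 804, 874 and 730 CPM in HNKO mice. The groups did not overlap, with means of 1070 ± 133 and 803 ± 71.9 CPM (SD, n = 3 each) and a log2 fold change of -0.41 (SE 0.22, edgeR adjusted p = 0.82). Here too the separation depended on the scaling. On CPM of the UMI total HNKO mouse 3 was at 935 CPM, inside the WT range of 886 to 1116, and no member separated the genotypes, as against 1468 of the 11810 genes (12.4%), of which 259 (2.19%) were lower in HNKO mice. The TMM factor of HNKO mouse 3 was 1.28 and those of the other mice 0.917 to 1.01. Without TMM the median log2 fold change of all genes was 0.20 in place of 0.02, and against this median the Nr1h4 value of -0.24 remained below that of the typical gene.

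Hnf4a, Prox1 and Nr1i2 had fold changes near 0 and mice spread on both sides. Hnf4a was at 329, 288 and 384 CPM in WT mice and 365, 313 and 209 CPM in HNKO mice, so HNKO mice 1 and 2 were inside the WT range and HNKO mouse 3 was below it (log2 fold change -0.17, SE 0.25, edgeR adjusted p = 0.904). Without HNKO mouse 3 its log2 fold change was 0.03. Prox1 spread widely among WT mice, at 476, 672 and 294 CPM, and the HNKO mice lay within this range at 352, 560 and 332 CPM (log2 fold change -0.21, SE 0.34, edgeR adjusted p = 0.921). Without WT mouse 2 its log2 fold change was 0.11.

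Nr1i2 showed the HNKO mice on opposite sides of the WT mice. WT mice were at 305, 324 and 437 CPM and HNKO mice 1, 2 and 3 at 493, 349 and 122 CPM. HNKO mouse 1 was above the WT range, mouse 2 inside it and mouse 3 below it, and the log2 fold change was -0.14 (SE 0.45, edgeR adjusted p = 0.962). Without HNKO mouse 3 it was 0.25, and without WT mouse 3 it was 0.03. The low level of HNKO mouse 3 stood beside its low sum of hepatocyte markers, whose part in it was not tested. In nuclei of this mouse with at least 60% of hashtag counts from its own hashtag (146 hepatocytes), Nr1i2 was at 140 CPM of the UMI total, against 156 CPM over all its hepatocytes.

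Cebpa, Foxa2 and Foxa3 had positive fold changes that rested on HNKO mouse 3. Cebpa was at 10.4, 12.5 and 12.2 CPM in WT mice and 10.2, 15.2 and 34.5 CPM in HNKO mice. Foxa2 was at 10.1, 11.5 and 6.21 CPM in WT mice and 5.42, 15.9 and 29.6 CPM in HNKO mice. Foxa3 was at 18.7, 26.7 and 17.4 CPM in WT mice and 25.5, 24.2 and 44.9 CPM in HNKO mice. In each case HNKO mouse 3 was the highest of all 6 mice, and HNKO mouse 1 was inside or below the WT range. The log2 fold changes were 0.77 (SE 0.43), 0.88 (SE 0.56) and 0.59 (SE 0.30), each with an edgeR adjusted p of 0.82. Without HNKO mouse 3 they were 0.12, 0.21 and 0.25, so more than 1.5 times smaller. Among the 146 hepatocytes of this mouse with at least 60% of their own hashtag, Cebpa, Foxa2 and Foxa3 were at 36.9, 37.6 and 61.7 CPM of the UMI total, near the 44.2, 37.9 and 57.5 CPM of all its hepatocytes.

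Onecut1 varied most between mice. It was at 79.8, 102 and 35.6 CPM in WT mice and 26.0, 214 and 34.7 CPM in HNKO mice, a ratio of 8.25 between HNKO mice 2 and 1. HNKO mice 1 and 3 were below the WT range and HNKO mouse 2 was above it. The log2 fold change was 0.34 (SE 0.78, edgeR adjusted p = 0.945) and -1.25 without HNKO mouse 2. Gm20649 followed it, at 60.7, 107 and 30.3 CPM in WT mice and 22.0, 280 and 38.4 CPM in HNKO mice. With the UMIs of both genes added together, an alternative chosen after the data had been seen, the log2 fold change was 0.57 (edgeR adjusted p = 0.905).

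**Figure D4:**
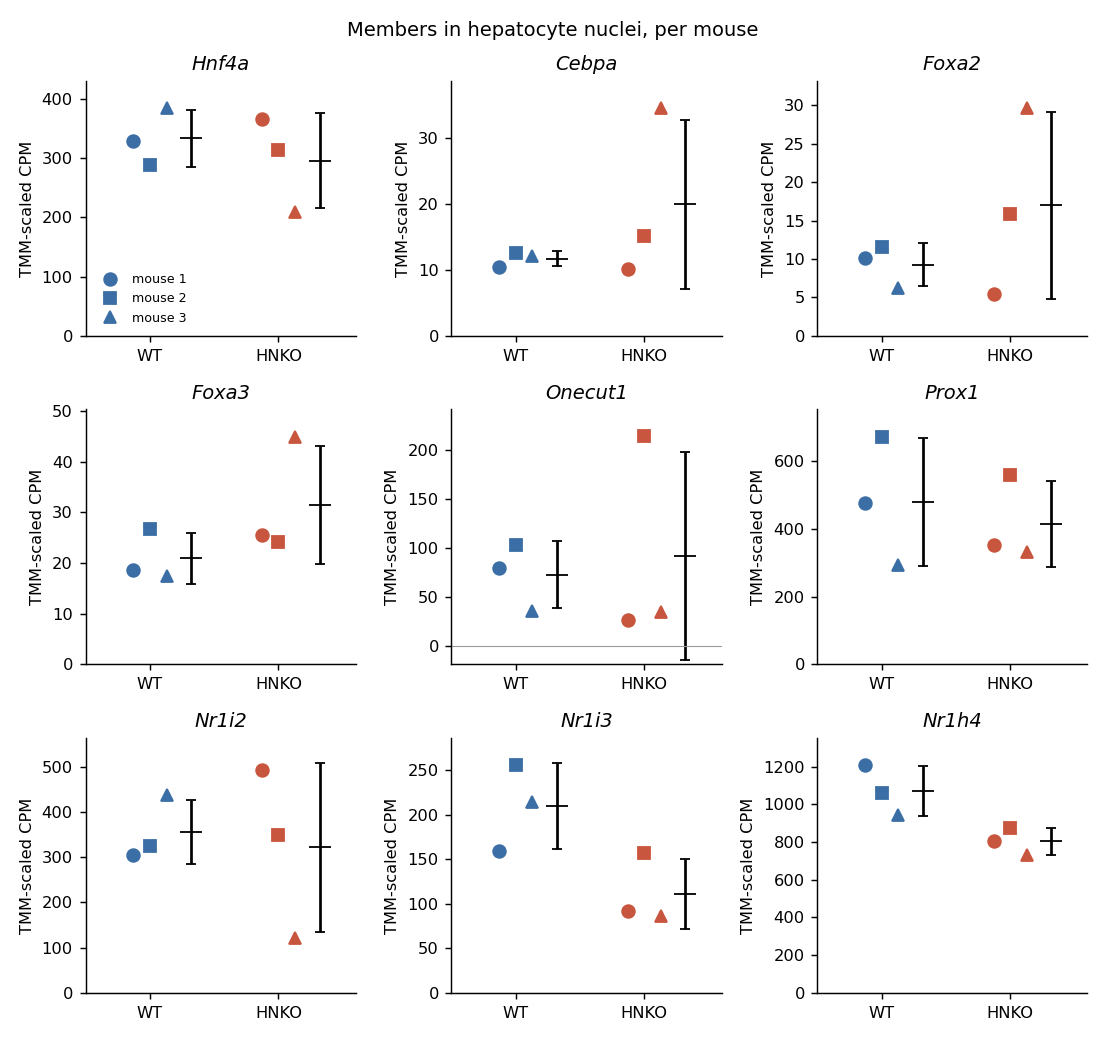
Level of each member in hepatocyte nuclei of each mouse (CPM scaled by TMM, linear axes that include 0). Marker shapes give mouse 1, 2 and 3 of a genotype, and bars give the mean ± SD (n = 3). The genotypes did not overlap for Nr1i3 and Nr1h4, whereas HNKO mouse 3 was highest for Cebpa, Foxa2 and Foxa3 and lowest for Hnf4a and Nr1i2, and HNKO mouse 2 was highest for Onecut1.

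The antisense genes are given beside their partners. Hnf4aos was at 451, 466 and 681 CPM in WT mice and 298, 418 and 142 CPM in HNKO mice (log2 fold change -0.89, SE 0.38, unadjusted edgeR p of 0.0486, edgeR adjusted p = 0.82). All HNKO mice lay below all WT mice for Hnf4aos on this scale, whereas they overlapped for Hnf4a. On CPM of the UMI total HNKO mouse 2 (422 CPM) was above WT mouse 1 (417 CPM), so the genotypes overlapped for Hnf4aos too. Prox1os was even, ranging over 303 to 399 CPM among WT mice and 314 to 415 CPM among HNKO mice (log2 fold change -0.01, SE 0.21, edgeR adjusted p = 0.997).

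The share of hepatocyte nuclei with a UMI gave a view that does not depend on a few rich nuclei. Thinned to 1300 UMIs, Nr1i3 was present in 16.0%, 26.8% and 22.1% of nuclei of WT mice 1, 2 and 3 and in 10.9%, 18.0% and 13.2% of nuclei of HNKO mice. HNKO mouse 2 exceeded WT mouse 1, so the groups overlapped (21.6 ± 5.40% and 14.0 ± 3.63%, SD, n = 3 each, exact permutation p = 0.2, two-sided). For Nr1h4 the shares were 68.0%, 63.9% and 59.8% in WT mice and 55.3%, 60.6% and 65.4% in HNKO mice, which also overlapped (exact permutation p = 0.5). HNKO mouse 3 gave the second highest Nr1h4 share although its TMM-scaled level was the lowest. Cebpa was present in 1.39% to 1.65% of WT nuclei and in 1.54%, 2.23% and 5.54% of nuclei of HNKO mice 1, 2 and 3 (exact permutation p = 0.3). For none of the 9 members did the genotypes separate, as against 1533 of the 11810 genes (13%), and with 3 mice against 3 the exact test cannot go below p = 0.1. Without thinning, when HNKO nuclei were also the deeper ones, 2 members, Cebpa and Foxa3, separated the genotypes, as did 4602 of the 11810 genes (39%).

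Genes that these factors are known to act on or with were described from 8 lists, none of which held a gene past the threshold. The lists were chosen with earlier results of these data known, so their counts and medians are descriptions. They are to be read beside all 11810 genes, of which 6184 had a positive and 5626 a negative fold change (median 0.02). Of 43 other hepatocyte regulators tested, 18 had a positive and 25 a negative fold change, with a median of -0.09. The largest were those of the T-box factor Tbx3 (log2 fold change 1.06, SE 0.76), the retinoic acid receptor Rara (0.78, SE 0.44) and Gata6 (0.73, SE 0.36). Tbx3 and Rara were at 30.3 and 23.9 CPM in HNKO mouse 3 and at no more than 9.15 and 9.56 CPM in the other mice, and without HNKO mouse 3 their log2 fold changes were -0.39 and 0.15.

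Regulators of bile duct and progenitor cells were mostly too low to test, with 7 of 16 tested and a median of 0.49. Of these, 2 had an unadjusted edgeR p under 0.05, as had 698 of all 11810 genes (5.91%). The other lists held 0 to 3 such genes. The Notch target Hes1 was at 3.07, 4.18 and 0.717 CPM in WT mice and 4.44, 5.29 and 26.4 CPM in HNKO mice (log2 fold change 2.21, SE 0.84, unadjusted p = 0.031, adjusted p = 0.82), and its log2 fold change was 0.90 without HNKO mouse 3. Glis3 was at 5.52, 2.62 and 3.35 CPM in WT mice and 18.2, 4.30 and 16.9 CPM in HNKO mice (log2 fold change 1.80, SE 0.56, unadjusted p = 0.013, adjusted p = 0.82). Klf6 was at 8.84 to 15.7 CPM in WT mice and 45.9, 17.0 and 14.9 CPM in HNKO mice (log2 fold change 1.06, and 0.36 without HNKO mouse 1). The 9 cholangiocyte markers summed to 358 to 405 CPM in hepatocyte sums of WT mice and to 726, 335 and 454 CPM in HNKO mice 1, 2 and 3, with 1 to 3 of them at 0 in a mouse. Their part in these values was not tested. Of 4 fetal and dedifferentiation genes tested out of 15, the median was 0.28, with Spp1 at 0.89, Igf2bp3 at 0.55 (-0.18 without HNKO mouse 3) and the fetal plasma protein Afp at 0.01.

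The target lists of the receptors held no called gene. Of 23 CAR and PXR targets tested, 19 had a negative fold change, with a median of -0.59. The sulfotransferase Sult1e1 was at 7.36, 5.75 and 17.0 CPM in WT mice and 2.79, 5.13 and 0.711 CPM in HNKO mice, all of which lay below the WT mice (log2 fold change -1.83, SE 0.65, unadjusted edgeR p of 0.023, edgeR adjusted p = 0.82). Sult2a1 and the cytochrome P450 Cyp3a44 came next at -1.56 (SE 1.19) and -1.43 (SE 1.17), but they ranged from 5.83 to 474 CPM and from 8.96 to 522 CPM between mice, and the log2 fold change of Sult2a1 was 0.18 without WT mouse 2. Of 18 FXR targets, 9 were positive and 9 negative, with a median of 0.01. The largest were Klb, a co-receptor for bile acid feedback (-0.98, SE 0.48), Cyp7a1, the rate-limiting enzyme of bile acid synthesis (-0.91, SE 0.46), and the bile acid importer Slc10a1 (-0.89, SE 0.49). Like the other lists, the FXR list does not record whether the factor raises or lowers a gene. Its signs and median are thus no measure of FXR activity.

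Of 20 HNF4A-dependent genes tested, 16 were negative, with a median of -0.21. The largest were the apolipoprotein gene Apoa4 at 1.07 (SE 0.44), Slc10a1 again and Mttp, which loads lipid onto apolipoprotein B, at -0.68 (SE 0.30). All 14 C/EBP-alpha targets were negative, with a median of -0.43, and led by Cyp2d9 (-1.06, SE 0.64, and -0.32 without WT mouse 1), the glucose-6-phosphatase gene G6pc (-1.04, SE 0.59) and the glycogen synthase gene Gys2 (-1, SE 0.41). Gys2 was at 1640, 1704 and 1555 CPM in WT mice and 837, 1240 and 376 CPM in HNKO mice. Its groups did not overlap, whereas Cebpa itself was not lower in HNKO mice 2 and 3. Of 12 FOXA and HNF6 associated genes, 10 were negative with a median of -0.57, led by G6pc, Cyp7a1 and Pck1 (-0.78, SE 0.63). G6pc and Pck1 were at 216 and 400 CPM in HNKO mouse 3 and at 778 to 2142 and 2617 to 3606 CPM in the other 5 mice, so these lists, which share genes, rest in part on this mouse.

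Finally, the genes with the most similar pattern to each member were sought over 22 sums of a mouse and a hepatocyte cluster with at least 20 nuclei each, among genes of a mean of at least 20 CPM. The sums share mice, depth and clusters drawn from all genes, so Pearson's r of log2(CPM + 1) is a description. Nr1i3 was closest to Ppara (r = 0.88), Cyp2a22 (0.86) and Esrrg (0.85), and Nr1i2 to Aass and Tnfrsf1b (0.92 each) and Etnk2 (0.90). For Nr1h4 they were A1cf and Fnip1 (0.85 each) and Cyp4a32 (0.82). Cebpa was close to the p53 regulator Mdm2 (0.90) and N4bp1 (0.89), Foxa2 to Srr (0.86), Pank2 and Fam120a (0.85 each), and Foxa3 to Itgb5 (0.86), Kmt5b and Nr1d2 (0.85 each). Prox1 was closest to Zfp292 (0.86), Cmip (0.84) and Prlr (0.82), and Onecut1 to Gm20649 (0.96), with which it shares reads, Cux2 (0.81) and Adipor2 (0.79). The best matches of Hnf4a, the most even member, had lower r, with 1700112D23Rik (0.78), 2310040G07Rik (0.77) and Adk (0.76). Between members the highest values were 0.77 for Onecut1 and Prox1 and 0.67 for Cebpa and Foxa2, and the lowest was -0.75 for Foxa3 and Nr1i2.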

How the data were processed

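Nuclei of 3 WT and 3 HNKO mice were hashtagged, pooled in 2 RNA and 2 hashtag pools and sequenced. Per the labels and the study's methods, the authors made estimated counts (UMIs per gene and nucleus, spliced and unspliced) with Alevin on GRCm38. They removed nuclei without a hashtag or with several, so doublets within a mouse could remain, and no doublet caller was run here. The submitters' processing notes also name Cell Ranger 5.0.1. The deposited SCTransform values are scores corrected to a common depth by the authors, and the deposited hashtag counts are raw. Mouse, genotype, cluster and type came from the authors' table of nuclei, since the labels describe pools, and numbers of mice name hashtags. Each mouse gave 1 sum.

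Estimated counts were summed per mouse and authors' type or cluster and rounded for the test. Hepatocyte sums (3524497 to 6635290 UMIs) were tested with edgeR 4.0.16 quasi-likelihood fits (R 4.3.3, filterByExpr, TMM, genotype alone as term), two-sided, with Benjamini-Hochberg adjustment over all 11810 genes and a threshold of 0.05. On simulated data the test recovered 85.5% of 200 genes changed by 2 on the log2 scale among 11585 genes, with 15 false calls. The log2 fold changes of the members were all smaller, and recovery of such changes was not simulated. Shares of nuclei with a UMI used nuclei thinned to 1300 UMIs and exact permutation tests over mice. Levels by type and cluster were described without a test, for mice with at least 10 nuclei, with exact 95% Poisson or binomial (Clopper-Pearson) intervals that cover counting error only. Alternatives were DESeq2 1.42.0, other scalings, no filter, left-out mice, nuclei with at least 60% of their own hashtag, thinned nuclei, unthinned shares, medians over mice and SCTransform values.

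The members and lists were chosen with earlier results of these data known. Named genes were the 9 members, the 3 genes of each list with the largest absolute log2 fold change in hepatocytes and the 3 genes of highest correlation with each member, plus overlapping genes and the markers and reference genes used to check a level. One gene that this rule names is not reported here. Gene spans came from a GENCODE annotation of GRCm38 and promoter windows from RefSeq.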

Additional observations from a re-analysis of the deposited data

How the results depend on the processing

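No member passed the threshold under any of the alternatives run with a test. The number of genes called, 0 with edgeR, was 21 with DESeq2 and 35 without a count filter, and ranged from 0 to 32 with a mouse left out, with the 32 calls arising without HNKO mouse 2. The cause was not tested. With a mouse left out, the log2 fold change ranged from -0.35 to 0.03 for Hnf4a, from -1.25 to 0.78 for Onecut1, from -0.49 to 0.11 for Prox1 and from -0.59 to 0.25 for Nr1i2. That of Nr1i3 and Nr1h4 was negative, and that of Cebpa, Foxa2 and Foxa3 positive, under every alternative run, although Foxa3 was at 0.12 when nuclei were thinned to equal UMIs. Adding the UMIs of Gm20649 to Onecut1 was chosen after seeing the data.

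The members whose shares of nuclei separated the genotypes numbered 0 after thinning (13% of all genes) and 2 without it (39% of all genes). With a mouse left out they ranged from 0 to 2, but fewer mice separate more readily. No share over all genes is at hand for those settings, so this range is not read as a result. Without thinning, the difference of HNKO minus WT in percentage points was 5.66 for Hnf4a, 2.81 for Nr1i2 and 2.03 for Nr1h4, which turned its direction, beside the greater depth of HNKO nuclei. With a mouse left out it ranged from -1.82 to 1.24 for Hnf4a, from -2.74 to 6.69 for Prox1, from -6.34 to 5.78 for Nr1i2, from -3.78 to 6.17 for Onecut1 and from -0.0907 to 2.03 for Foxa3. Hnf4a in Cholangiocyte 1 stood at 108% of hepatocytes on UMIs and 86.7% on SCTransform values. Hnf4a in Cholangiocyte 2 stood at 8.74%, at 13.2% as a median over mice and at 11.8% on SCTransform values. No paired analysis was possible because the numbers in the labels name pools and the numbers of mice name hashtags, which pair no WT mouse with an HNKO mouse. Sums within each RNA pool were not run, since barcodes carry no pool name. Members with few UMIs, namely Cebpa, Foxa2 and Foxa3 outside hepatocytes, were limited by depth.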
